A study of Mus musculus with 66 samples.

Results

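Trp53, which encodes the mouse tumor suppressor p53, and 9 genes that p53 is known to induce were followed through 66 RNA sequencing libraries of mouse bladder. The 10 genes (Trp53, Mdm2, Ccng1, Bax, Bbc3, Eda2r, Trp53inp1, Phlda3, Zmat3 and Sesn2) were chosen by symbol after the Ensembl identifiers of 3 deposited count tables were matched to GENCODE M21. All 10 of 10 were found among 39179 genes. The study asked how well small amounts of RNA, frozen or fixed, can be measured on different platforms, and only its sequencing counts were used here.

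BC57 is a mouse bladder cancer cell line grown in DMEM with 10% FBS, and MNU is normal urothelium, the lining of the bladder, taken from 9 mice. The labels name a single line and do not say which mouse went into which library, nor the age or genotype of the mice. Material was snap frozen in liquid nitrogen (FF) or kept in buffered formalin for 24 h and set in wax (FFPE). Poly(A)-selected libraries (TruSeq Stranded mRNA, 1 µg, frozen material only) were the study's reference. Both low-input kits start from total RNA: Ovation SoLo was used at 50 pg, 250 pg and 2 ng, and SMARTer Pico at 250 pg and 2 ng, each on frozen and on fixed RNA. That gives 22 groups of 3 libraries, 11 of BC57 and 11 of MNU. Per the series' design text each sample was tested in triplicate with the low-input kits, and nothing in the labels says that the 3 libraries of a group came from separate cultures or animals. The p-values therefore measure only the spread between these libraries, which may be technical.

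As background, p53 is a transcription factor that is stabilized after DNA damage and other stress, and that binds DNA as a tetramer on paired copies of a short consensus element. Mdm2 is the ubiquitin ligase that marks p53 for degradation and is itself a p53 target, which closes a negative feedback loop. Ccng1 encodes cyclin G1, another target that acts with Mdm2. Bax and Bbc3 (PUMA) act at mitochondria in apoptosis, Eda2r is a receptor of the TNF receptor family for an ectodysplasin isoform, and Trp53inp1 is a stress-induced nuclear protein with roles in cell death and autophagy. Phlda3 inhibits Akt at the membrane, Zmat3 is an RNA-binding zinc finger protein, and Sesn2 (sestrin 2) restrains mTORC1. Much p53 activity is set by protein stability, which RNA levels do not show.

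RefSeq start-site windows of 300 bases (250 before to 50 after the start, GRCm38.p6) were held for 8 of the 10 genes. These genes had 10 windows. A match to the p53 consensus decamer, which is 10 bases long and reads the same on both strands, was found in 4 of the 10, each of a different gene. It was found in 8.36% of all 32851 windows. The decamer is a half-site, 1 copy of the paired element, and each of the 4 windows held only 1. The 4 windows are shown because they place such a half-site upstream of genes that differed between BC57 and MNU in poly(A) libraries. There 2 were higher in BC57 (Trp53 and Bax) and 2 were lower (Mdm2 and Ccng1). Over the 11 comparisons of BC57 with MNU, Bax and Mdm2 were each called in only 4, with values on both sides of 0. Each window is written 5′ to 3′ along the gene's own strand, with the decamer in capitals.
Trp53, plus strand, chr11:69580109-69580408: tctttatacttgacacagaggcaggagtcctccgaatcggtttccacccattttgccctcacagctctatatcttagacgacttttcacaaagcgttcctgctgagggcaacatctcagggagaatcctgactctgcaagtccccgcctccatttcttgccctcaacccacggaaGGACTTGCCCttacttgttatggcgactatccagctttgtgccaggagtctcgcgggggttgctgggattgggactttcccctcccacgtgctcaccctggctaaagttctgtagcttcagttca
Bax, minus strand, chr7:45466849-45467148: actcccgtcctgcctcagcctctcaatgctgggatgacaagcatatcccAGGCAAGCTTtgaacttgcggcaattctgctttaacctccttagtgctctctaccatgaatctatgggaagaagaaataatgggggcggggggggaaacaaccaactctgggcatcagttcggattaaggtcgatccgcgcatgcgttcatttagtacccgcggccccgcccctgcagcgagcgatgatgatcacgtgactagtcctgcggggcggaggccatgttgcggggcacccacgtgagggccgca
Mdm2, minus strand, chr10:117710709-117711008: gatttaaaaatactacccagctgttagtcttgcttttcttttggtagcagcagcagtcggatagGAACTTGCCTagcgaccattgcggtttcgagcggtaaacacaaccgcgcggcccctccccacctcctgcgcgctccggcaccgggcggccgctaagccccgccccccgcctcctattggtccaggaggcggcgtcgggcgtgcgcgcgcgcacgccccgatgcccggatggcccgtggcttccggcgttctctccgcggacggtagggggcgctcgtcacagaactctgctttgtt
Ccng1, minus strand, chr11:40755237-40755536: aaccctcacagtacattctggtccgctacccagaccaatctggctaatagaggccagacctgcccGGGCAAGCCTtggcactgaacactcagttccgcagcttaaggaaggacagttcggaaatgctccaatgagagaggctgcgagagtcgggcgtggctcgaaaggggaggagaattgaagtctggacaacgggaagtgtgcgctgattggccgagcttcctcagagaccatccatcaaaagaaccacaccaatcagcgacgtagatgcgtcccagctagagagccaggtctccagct
Counted from the start site, the decamer's first base lies at -75 in Trp53, -201 in Bax, -186 in Mdm2 and -185 in Ccng1. No decamer was found in the windows of Phlda3, Sesn2, Eda2r or in the 3 windows of Bbc3. A match describes the letters only. No binding was measured in these files, and in poly(A) libraries the direction of change differed among the 4 genes that hold a match.

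The genes lie at separate places in the mm10 genome (GENCODE M21 coordinates): Trp53 at chr11:69580359-69591873, Mdm2 at chr10:117688875-117710758, Ccng1 at chr11:40748552-40755311, Bax at chr7:45461697-45466898 and Bbc3 at chr7:16308393-16318205. Eda2r is at chrX:97333840-97377216, Trp53inp1 at chr4:11156431-11174379, Phlda3 at chr1:135766119-135769136, Zmat3 at chr3:32334792-32366014 and Sesn2 at chr4:132492032-132510501. Counts are per gene, over its exons, so isoforms were not separated. Bax shares exons on its own strand with the readthrough gene Gm45808, which had no entry in the tables, so how reads of the overlap were assigned is uncertain. Sesn2 contains the antisense gene Gm12981 with no shared exon. The processed pseudogene Trp53-ps had 0 counts in 54 of 66 libraries and at most 2 counts, or 2.04% of the Trp53 count, in the others.

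Gene counts per library were 18499591 to 36187226 for poly(A), 928722 to 4706030 for Ovation and 651879 to 7152648 for SMARTer. The 2 shallowest SMARTer libraries, MNU FFPE library 3 at 250 pg (651879 counts) and at 2 ng (780106 counts), also stood apart from their partners: the summed level of 8 urothelial markers was 349 and 418 CPM in them against 3606 to 4118 CPM in the other 4. They had counts in more genes than their partners, 19403 against 15768 and 14186 at 250 pg and 30912 against 20100 and 19739 at 2 ng. They thus differed in composition as well as depth. Some results that rest on them are also given without the SMARTer FFPE libraries numbered 3. All other values, among them group means, spreads and limits from counts, include them. BC57 expressed the 5 epithelial markers (Epcam, Krt8, Krt18, Krt19 and Cdh1) at a summed 5950 to 6662 CPM in poly(A) libraries, against 4504 to 4969 CPM in MNU. The 8 urothelial markers were lower, at 362 to 394 against 12299 to 14193 CPM. The uroplakin Upk3a, a defining marker of the urothelial surface, was nearly absent from BC57, with 3 counts in its 3 poly(A) libraries.

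MNU also held more RNA of the markers of other cell types. In poly(A) libraries the 6 fibroblast markers summed to 10760 to 12182 CPM in MNU against 6.04 to 8.81 CPM in BC57, the 5 smooth muscle markers to 227 to 256 against 9.49 to 12.2 CPM, the 4 endothelial markers to 232 to 251 against 0.752 to 0.970 CPM, and the 5 immune markers to 291 to 319 against 5.66 to 6.83 CPM. All of these markers were detected in both groups, and the 6 fibroblast markers and the 8 urothelial markers were each lower in BC57 in the test. The part of these cells in the BC57 to MNU differences below was not tested. In bulk RNA, fewer cells of a type and less RNA per cell cannot be told apart.

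In the poly(A) reference libraries Trp53 itself was higher in BC57 than in MNU. Levels are given as CPM, the count over the library's total count in units of 1e6, scaled by TMM within the comparison. The BC57 libraries read 244, 241 and 244 and the MNU libraries 57.6, 63.3 and 61.0. The groups were far apart, and the log2 fold change was 1.95 (SE 0.04, adjusted p = 1.39e-21, edgeR quasi-likelihood test with Benjamini-Hochberg adjustment over 17934 genes). All 10 genes passed the test at an adjusted p under 0.05, 3 higher and 7 lower in BC57, and none had overlapping groups. The background is 91.2% of all genes tested, 42.8% higher and 48.5% lower, so a pass alone does not set the 10 genes apart. Overlap was not counted over all genes, so here and below its absence does not set them apart either. The median log2 fold change of the 10 genes was -0.56, and that of all genes tested was -0.12.

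The genes of p53 control, Mdm2 and Ccng1, were both lower in BC57. Mdm2 differed least of the 10 genes. Its CPM was 61.6, 61.7 and 64.1 in BC57 and 71.0, 72.1 and 70.7 in MNU, a log2 fold change of -0.25 (SE 0.04, adjusted p = 1.7e-05). The libraries did not overlap, although the gap was small. Ccng1 read 77.7, 82.0 and 77.4 CPM in BC57 and 246, 218 and 220 CPM in MNU, a log2 fold change of -1.58 (SE 0.05, adjusted p = 8.23e-19). BC57 had more Trp53 RNA and less RNA of these 2 targets in the same libraries.

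The genes of cell death went in both directions. Bbc3, which encodes the BH3-only protein PUMA, read 10.9, 10.3 and 10.7 CPM in BC57 and 3.59, 5.39 and 5.36 CPM in MNU (log2 fold change 1.06, SE 0.11, adjusted p = 4.66e-09). Bax, the pore-forming effector, read 60.1, 58.5 and 57.4 CPM in BC57 and 32, 37.7 and 39.9 CPM in MNU (0.61, SE 0.06, adjusted p = 1.64e-09). These were the only members besides Trp53 that were higher in BC57. Eda2r was near the limit of detection in BC57, at 0.119, 0.113 and 0.208 CPM, and read 7.39, 6.78 and 6.23 CPM in MNU. That is 13 counts in 3 BC57 libraries against 535 in 3 MNU libraries (log2 fold change -5.47, SE 0.22, adjusted p = 1.71e-16), the largest difference among the 10 genes. Trp53inp1 followed, with 9.86, 9.80 and 8.38 CPM in BC57 against 190, 164 and 162 CPM in MNU (-4.26, SE 0.07, adjusted p = 2.52e-23).

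The 3 remaining targets, which act in growth signalling and RNA binding, were lower in BC57. Phlda3, the Akt inhibitor, was at 27 ± 1.31 CPM (SD, n = 3) in BC57 and 67.4 ± 6.50 CPM in MNU, a log2 fold change of -1.38 (SE 0.06, adjusted p = 1.23e-15, edgeR). Zmat3 was at 36.1 ± 0.712 against 56.8 ± 0.491 CPM (-0.71, SE 0.05, adjusted p = 1.35e-12, edgeR). Sesn2 was at 32.6 ± 2.47 against 42.1 ± 1.92 CPM (-0.42, SE 0.06, adjusted p = 3.27e-07, edgeR). In each of the 3 genes every BC57 library lay below every MNU library.

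**Figure D1:**
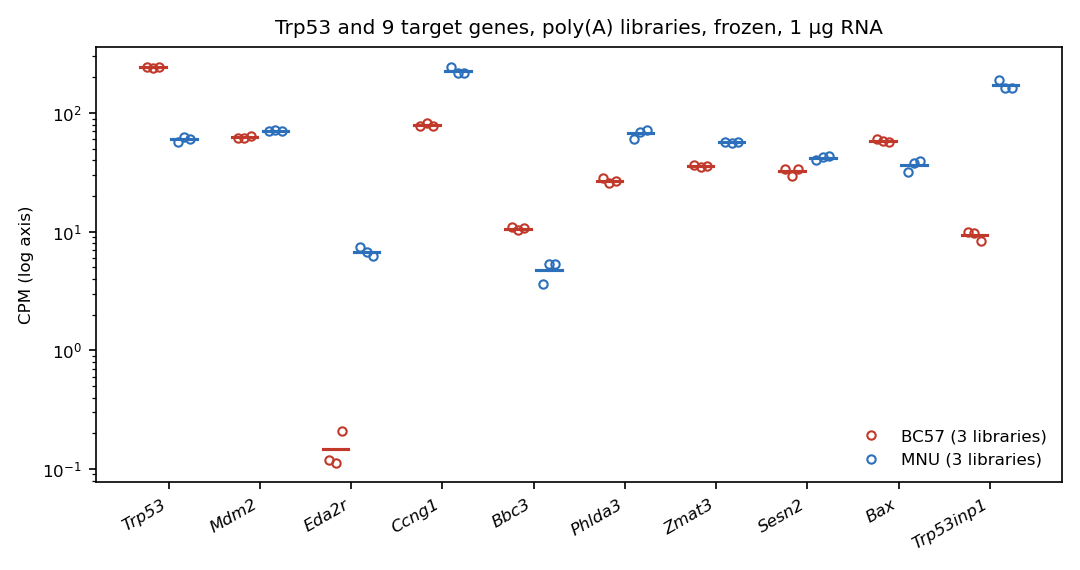
Level of Trp53 and 9 target genes in the poly(A) libraries, as CPM on a log axis; each point is a library, bars are means of 3 libraries of BC57 cells or MNU urothelium. The groups are apart for all 10 genes: Trp53, Bbc3 and Bax lie higher in BC57, and Eda2r (0.147 against 6.80 CPM) and Trp53inp1 (9.35 against 172 CPM, means) lie furthest below.

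Levels of different genes were compared only per kilobase of annotated exon, in the poly(A) libraries with all 66 libraries scaled together. In BC57 the order of mean CPM per kb was Trp53 59.5, Bax 36.8, Ccng1 22.3, Phlda3 17.1, Mdm2 12.2, Sesn2 9.30, Bbc3 4.94, Zmat3 3.12, Trp53inp1 1.43 and Eda2r 0.0248, and no 2 neighbours overlapped. In MNU the order was Ccng1 78.9, Phlda3 52.7, Trp53inp1 32.2, Bax 28.3, Trp53 18.3, Mdm2 17.1, Sesn2 14.8, Zmat3 6.05, Bbc3 2.75 and Eda2r 1.40 CPM per kb. There the libraries of Trp53inp1 and Bax overlapped, as did those of Trp53 and Mdm2. Trp53 was thus the most abundant of the 10 transcripts per length in the cell line and the fifth in the urothelium.

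The same BC57 to MNU comparison was then read under each of the 10 other combinations of kit, fixation and input. Trp53 passed the test as higher in BC57 in 10 of all 11 comparisons, with log2 fold changes from 1.29 to 2.77. At 2 ng Ovation it read 174, 195 and 161 CPM in frozen BC57 against 46.4, 42.4 and 43 CPM in frozen MNU (log2 fold change 1.96, SE 0.11), and 171, 166 and 165 against 28.9, 29 and 41 CPM in FFPE material (2.28, SE 0.12). At 2 ng SMARTer it read 144, 112 and 112 against 25.5, 27.1 and 25.6 CPM frozen (2.16, SE 0.11). The BC57 libraries lay above the MNU libraries in all 11 comparisons.

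At the lowest input of Ovation, Trp53 was called higher in BC57 in both frozen and fixed RNA. At 50 pg Ovation frozen, BC57 read 159, 169 and 198 CPM and MNU 17.9, 41.2 and 69.3 CPM (log2 fold change 2.06, SE 0.36, adjusted p = 0.000277, edgeR). At 50 pg FFPE, BC57 read 144, 139 and 120 CPM and MNU 30.9, 50.3 and 48.5 CPM (1.61, SE 0.31, adjusted p = 0.00156). The comparison that missed the threshold was SMARTer FFPE at 250 pg, where BC57 read 105, 107 and 115 CPM and MNU 21.5, 76.1 and 30.7 CPM (1.29, SE 0.55, adjusted p = 0.197). Within MNU the second library, at 76.1 CPM, stood above both others, and the BC57 values were close to each other. Leaving out that MNU library gave a log2 fold change of 2.04, and leaving out the libraries numbered 3 gave 1.08; neither passed.

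Trp53inp1 was lower in BC57 in 10 of 11 comparisons, with log2 fold changes from -4.95 to -2.11, and its groups overlapped in none. Its highest BC57 library in any comparison read 38.2 CPM (SMARTer FFPE, 250 pg) and its lowest MNU library 59.2 CPM (SMARTer FFPE, 2 ng). The comparison without a call was again SMARTer FFPE at 250 pg, at 38.2, 20.1 and 6.27 against 91.3, 108 and 68.1 CPM (-2.11, SE 0.68, adjusted p = 0.0917). Without the libraries numbered 3 the difference was -1.83 and passed the test (adjusted p = 0.0452), as it did in DESeq2 (-2.21, adjusted p = 0.0144).

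Ccng1 was called lower in BC57 in 9 of 11 comparisons, from -2.08 to -1.03 on the log2 scale. The 2 exceptions were the SMARTer FFPE sets. At 2 ng its CPM was 51.1, 46 and 32.9 in BC57 and 143, 128 and 29.6 in MNU (-1.28, SE 0.47, adjusted p = 0.0758), where MNU library 3 fell to the level of the cell line. Without the libraries numbered 3 the value was -1.53 (adjusted p = 2.32e-07). At 250 pg the MNU libraries read 128, 106 and 17.4 CPM, the lowest again being the library numbered 3, which is also the shallowest.

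Eda2r was tested in 9 of 11 comparisons, the other two being left out by the filter on low counts, and was called lower in 8, of which the 2 ng SMARTer FFPE call was lost without any of 4 single libraries. Its BC57 and MNU libraries overlapped in none of the 11. In BC57 it had 0 counts over all 3 libraries in 5 groups. Against the limit of 3 counts over a group, the level in MNU was at least 17.4-fold higher at 2 ng frozen Ovation (47 MNU counts), 27.8-fold at 250 pg (79 counts) and 22.2-fold at 50 pg (90 counts). It was at least 34.9-fold higher at 2 ng SMARTer FFPE (86 counts) and 11.6-fold at 250 pg SMARTer FFPE (21 counts). Where BC57 had 1 or 2 counts, the ratio of MNU to BC57 was 154 for FFPE Ovation at 2 ng (95% counting interval 27.1 to 6110, 130 counts against 1). It was 211 for FFPE Ovation at 50 pg (37.4 to 8390, 179 counts against 1) and 28.2 for frozen SMARTer at 2 ng (7.48 to 239, 59 counts against 2). These limits and intervals cover counting error only, and fitted fold changes against a group at 0 are no limits. The SMARTer frozen comparison at 250 pg was not called, with 0, 0 and 1.12 CPM in BC57 against 4.03, 4.80 and 2.51 CPM in MNU (adjusted p = 0.0663).

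Zmat3 was called lower in BC57 in 9 of 11 comparisons, from -1.72 to -0.56, and Phlda3 in 6, with values from -1.76 to 0.47. Both calls that were missed for Zmat3 were in the lowest input of FFPE material, with -0.82 (adjusted p = 0.108) for Ovation at 50 pg and -0.63 (adjusted p = 0.535) for SMARTer at 250 pg. The Zmat3 calls at 250 pg frozen SMARTer and 2 ng SMARTer FFPE, and the Phlda3 calls at 250 pg, were each lost when any of 4 or 5 single libraries was left out. Mdm2 was called in 4 comparisons, always lower, within a range of -0.62 to 0.17. Its calls at 2 ng Ovation were weak: the adjusted p of the frozen set was 0.0318 in edgeR and 0.063 in DESeq2, and the FFPE call was lost without MNU library 2 or BC57 library 3. Sesn2 was called lower in 2 of 11, with values from -0.99 to 0.48, and its frozen 2 ng Ovation call (adjusted p = 0.0475) gave 0.105 in DESeq2.

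Bax and Bbc3 were called higher in BC57 in poly(A) libraries and in part of the other comparisons. Bax was called higher in 4 of 11 comparisons: in poly(A), at 2 ng Ovation frozen (log2 fold change 0.82, SE 0.23, adjusted p = 0.000663) and FFPE (0.67, SE 0.27, adjusted p = 0.0206), and at 2 ng SMARTer frozen (0.61, SE 0.22, adjusted p = 0.0124). The FFPE call was lost in DESeq2 (adjusted p = 0.0649) and without MNU library 2 or BC57 library 3, and the SMARTer call without MNU library 3. At 250 pg frozen Ovation the Bax value was -0.10 (adjusted p = 0.915), and without MNU library 3 of that group it was 1.08 (adjusted p = 0.0239). Bbc3 passed the filter in 6 comparisons and was called higher in 2, poly(A) and 2 ng frozen SMARTer (0.93, SE 0.40, adjusted p = 0.0342), the second of which was lost in DESeq2 (adjusted p = 0.0618) and without any of 3 single libraries. Its 6 fitted values lay between 0.62 and 1.24. In the 5 comparisons in which it did not pass the filter, Bbc3 had 17 counts in BC57 and 12 in MNU for frozen Ovation at 2 ng, and 20 and 5 at 250 pg. For FFPE Ovation it had 11 and 41 counts at 250 pg (1.08 ± 0.948 against 4.42 ± 5.48 CPM), and 27 and 0 at 50 pg, a level at least 7.62-fold higher in BC57. For FFPE SMARTer at 250 pg it had 27 and 2. The groups overlapped in both frozen sets and in FFPE Ovation at 250 pg, where the MNU mean was the higher.

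Counted over the 10 genes, 9 of 9 tested passed at 2 ng frozen Ovation (79.1% of all genes), 8 of 10 at 2 ng FFPE Ovation (76.9%) and 9 of 10 at 2 ng frozen SMARTer (77.5%). At 250 pg the counts were 4 of 8 for frozen Ovation (47.7%), 6 of 9 for FFPE Ovation (52.2%) and 5 of 10 for frozen SMARTer (51.4%). At 50 pg they were 5 of 10 frozen (45.2%) and 4 of 9 FFPE (33.5%). In SMARTer FFPE material 4 of 10 passed at 2 ng (29.8%) and 0 of 8 at 250 pg (8.62%). In that last set 3123 genes had an unadjusted p under 0.05, and DESeq2 called 1 of the members. The share of the 10 genes that passed fell along with the share of all genes. At 250 pg frozen Ovation the count was 7 without MNU library 3. The shares above belong to the edgeR fits on all libraries, so this count and the DESeq2 count have no share beside them.

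**Figure D2:**
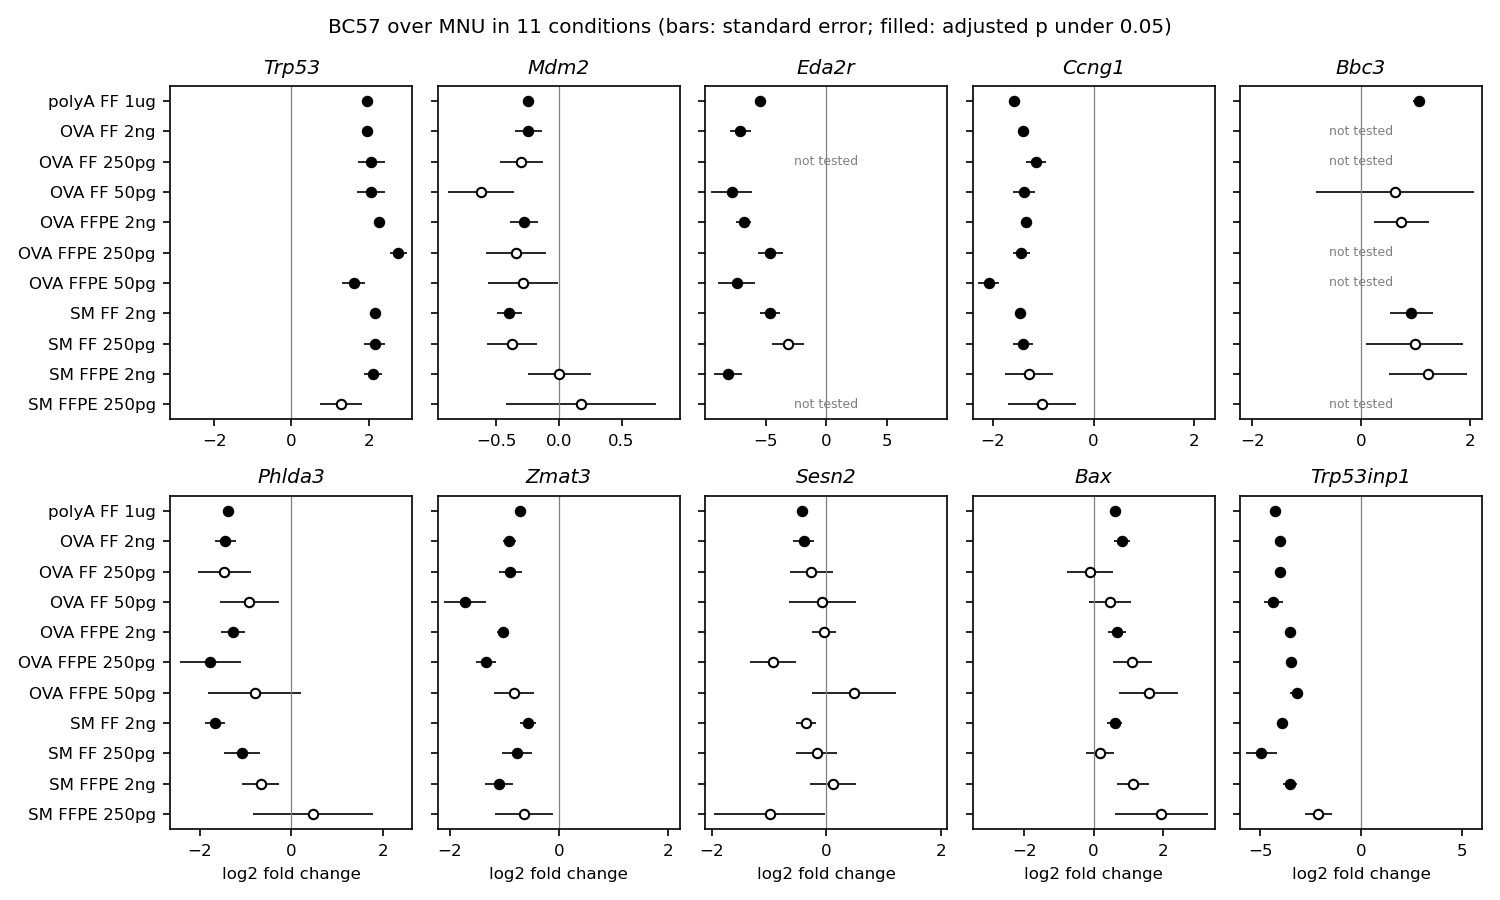
Log2 fold change of BC57 over MNU (with its SE) for the 10 genes in each of 11 combinations of kit (OVA Ovation, SM SMARTer), preservation and input, with x axes scaled per gene; filled points passed an adjusted p under 0.05. Trp53 stays between 1.29 and 2.77 and Trp53inp1 between -4.95 and -2.11, while Mdm2, Sesn2, Phlda3 and Bax lie nearer 0 and change sign in at least 1 set.

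Other genes of the pathway were read from a list of 41 further p53 targets and a list of 29 regulators and partners of p53. In poly(A) libraries 20 of the 41 other targets were higher in BC57 (42.8% of all genes were), 20 were lower (48.5% of all genes) and 1 (Steap3) did not pass, with a median log2 fold change of 0.01 against -0.12 for all genes. The higher ones were led by Gls2, a mitochondrial glutaminase (44 ± 1.37 against 0.827 ± 0.156 CPM, log2 fold change 5.72, SE 0.10), Gdf15, a stress-induced cytokine (5.39), the spindle protein gene Ckap2 (5.37) and the kinase gene Dyrk3 (4.15). The lower ones were led by Trp53i11 (-11.65, from 4 counts in BC57 against 12941 in MNU), the death receptor gene Fas (-4.69), the antiproliferative gene Btg2 (17 ± 0.433 against 139 ± 4.63 CPM, -3.08) and the phosphatase gene Ptp4a3 (-3.04). Cdkn1a, which encodes the cell cycle inhibitor p21, was at 101 ± 0.977 CPM in BC57 and 64.0 ± 5.75 CPM in MNU (0.59, SE 0.05).

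Among the 28 regulators tested (Trp73 was not), 18 were higher in BC57 and 8 were lower, beside 42.8% and 48.5% of all genes, and 2 (Rpl11 and Trp53rka) did not pass, with a median of 0.22. Cdkn2a, whose locus encodes the Mdm2 inhibitor ARF as well as p16, was at 183 ± 6.07 CPM in BC57 and 0.882 ± 0.0341 CPM in MNU, a log2 fold change of 7.64 (SE 0.08) from 15555 against 70 counts. The count is for the gene and does not separate its 2 products. The checkpoint kinase gene Chek1 (5.41), Hipk2, a kinase of p53 (178 ± 0.848 against 47.5 ± 1.82 CPM, 1.85), and Daxx (1.36) were also higher. Trp63, the p53 relative of basal epithelium, was at 0.792 ± 0.0985 CPM in BC57 and 398 ± 15.6 CPM in MNU (-8.98, SE 0.08). Mdm4, the Mdm2 relative that binds p53, was at 37.1 ± 1.13 against 108 ± 9.32 CPM (-1.60, SE 0.06), and Sirt1 (-0.95) and Trp53bp1 (-0.70) were lower too. Wrap53, the antisense neighbour of Trp53, was higher at 1.13 (SE 0.08).

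Most of these differences were seen again with the other kits. Cdkn2a was called higher in 11 of 11 comparisons, and Trp63 and Trp53i11 lower in 11 of 11. Ckap2, Chek1 and Hipk2 were called higher in 10, and Gls2, Dyrk3 and Daxx in 9. Btg2, Ptp4a3 and Trp53bp1 were called lower in 10, Mdm4 in 9 and Sirt1 in 6. Fas was lower in 6 of 6 in which it was tested and Gdf15 higher in 3 of 3. Cdkn1a was called higher in 4 of 11 and Wrap53 in 2 of 11, each with values on both sides of 0 (-0.78 to 0.82 and -0.11 to 2.49). All 11 comparisons set the same line against the same tissue, and the labels name no separate cultures or animals for them.

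With all 66 libraries scaled together, the levels of a gene can be set in order over the 22 groups. For Trp53 the 11 BC57 groups, at means of 103 to 241 CPM, all lay above the 11 MNU groups, at 21 to 73.9 CPM. Poly(A) was at the top of each set, with 241 ± 9.79 CPM in BC57 and 73.9 ± 4.76 CPM in MNU. Ovation groups of BC57 followed at 136 to 170 CPM, frozen SMARTer at 134 to 143 CPM and FFPE SMARTer at 103 to 107 CPM. Only 4 of the 21 pairs of neighbours in this order had libraries that did not overlap, so the finer order is within the spread. In MNU SMARTer FFPE at 250 pg the values were 20.7, 70.3 and 16.1 CPM, the second library standing far above the others.

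Trp53inp1 and Ccng1 were ordered the other way. Trp53inp1 ranged over group means of 74.6 to 277 CPM in MNU and 4.05 to 26.1 CPM in BC57, with 5 of 21 neighbour pairs apart. Ccng1 ranged over 76.9 to 306 CPM in MNU and 41.9 to 118 CPM in BC57, so its sets met. Mdm2 groups of MNU (45.4 to 107 CPM) and BC57 (58.9 to 96.9 CPM) were mixed, and no neighbours in its order were apart. Eda2r was at 2.51 to 17 CPM in MNU and 0 to 0.527 CPM in BC57. The other members had wider and overlapping ranges: Zmat3 25.9 to 70.0 CPM in BC57 and 46.2 to 140 CPM in MNU, Phlda3 4.07 to 26.7 and 8.54 to 82.1 CPM, Sesn2 13.6 to 32.3 and 11.2 to 51.2 CPM, Bax 15.9 to 58 and 4.13 to 44.6 CPM, and Bbc3 1.08 to 10.5 and 0 to 5.83 CPM.

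**Figure D3:**
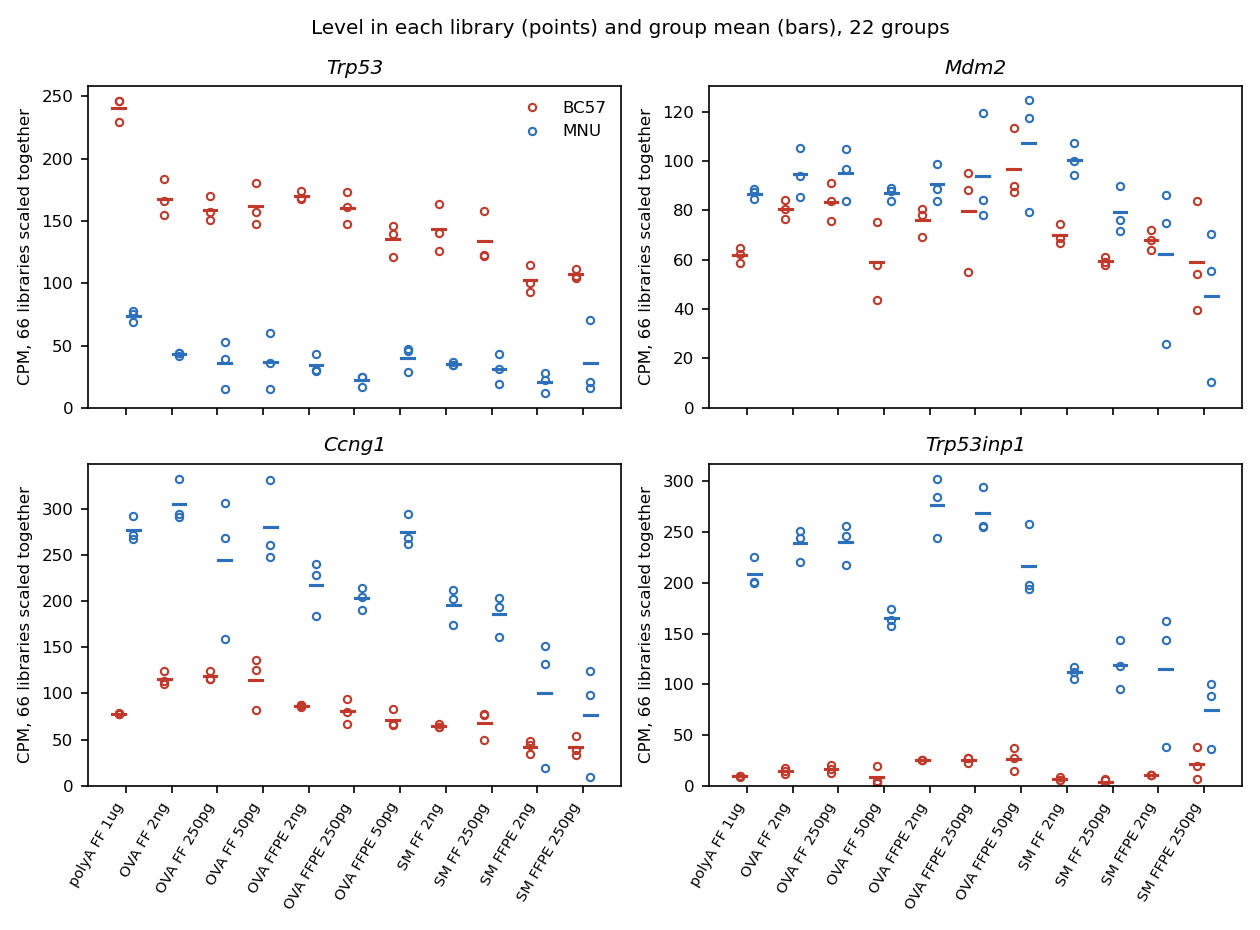
CPM of Trp53, Mdm2, Ccng1 and Trp53inp1 in 66 libraries scaled together, by the 22 groups of sample, kit, preservation and input; points are libraries. Trp53 separates the BC57 groups (means 103 to 241 CPM) from the MNU groups (21 to 73.9 CPM), Trp53inp1 separates them the other way, and the Mdm2 groups mix.

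As a description over the 22 group means, Pearson's r of log2(CPM + 1) was taken between Trp53 and other genes at a mean of at least 5 CPM. Genes with names of the Gm, AC or Rik type, unmatched identifiers or shared symbols were set aside, also for Eda2r and Mdm2. Among the 11523 genes left for Trp53, r was highest for Dusp9 (0.982), Ccnd1 (0.981) and H2afz (0.981). For Eda2r the closest were Gas1 (0.983), Zcchc3 (0.982) and Ednrb (0.981), and for Mdm2 they were Ints6 (0.916), Far1os (0.894) and Rbm39 (0.883). Among the members r was 0.935 between Eda2r and Trp53inp1, 0.857 between Zmat3 and Trp53inp1, 0.778 between Phlda3 and Sesn2, -0.863 between Trp53 and Trp53inp1 and -0.892 between Trp53 and Eda2r. The points share 2 RNA sources, the kits and the depth, and for Trp53, Eda2r and Trp53inp1 the BC57 and MNU groups form separate sets.

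Fixation was compared at 2 ng within each sample and kit. Trp53 did not differ measurably in BC57 with Ovation, at 170, 166 and 163 CPM in FFPE and 166, 188 and 155 CPM in frozen material (log2 fold change 0.00, SE 0.08, adjusted p = 0.974). In MNU it read 30.6, 30.5 and 43 against 45.7, 41.9 and 43.5 CPM (-0.31, SE 0.16, adjusted p = 0.129), and with SMARTer the values were -0.33 (SE 0.12, adjusted p = 0.0611) in BC57 and -0.31 (SE 0.21, adjusted p = 0.377) in MNU. Trp53 was not called in any of the 4 fixation comparisons of the edgeR fit without a block. In the BC57 SMARTer comparison, where equal library numbers deviated together, the fit with the library number as a replicate block called it at the same size (adjusted p = 0.0113). The labels do not say that a number is shared, so that call rests on a pairing that was not shown.

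Ccng1 and Zmat3 did differ. Ccng1 was lower after fixation with Ovation, at 85.2, 86.7 and 82.9 CPM in FFPE BC57 against 114, 127 and 110 CPM frozen (-0.44, SE 0.10, adjusted p = 0.000181). In MNU it read 234, 186 and 240 against 299, 299 and 330 CPM (-0.47, SE 0.08, adjusted p = 2.19e-07). With SMARTer it was 43.4, 38.9 and 30.4 against 56.1, 56 and 52.8 CPM in BC57 (-0.47, SE 0.14, adjusted p = 0.0215), a call that leaving out any of 4 single libraries removed. Zmat3 was higher after fixation with Ovation, at 61.2, 71.0 and 73.4 against 43.2, 47.4 and 46.4 CPM in BC57 (0.61, SE 0.12, adjusted p = 6.45e-05) and 151, 133 and 142 against 83.3, 91.5 and 83.5 CPM in MNU (0.74, SE 0.10, adjusted p = 1.9e-09). With Ovation the frozen and fixed libraries of both genes did not overlap in either sample. With SMARTer those of Zmat3 overlapped in both samples, and the edgeR fits on all libraries called Zmat3 in neither.

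Trp53inp1 was also higher after fixation with Ovation, at 24.3, 24.8 and 24.1 against 17.7, 14.6 and 11.5 CPM in BC57 (0.76, SE 0.20, adjusted p = 0.00241). In MNU the groups overlapped, at 250, 288 and 303 against 227, 256 and 243 CPM (0.23, SE 0.07, adjusted p = 0.00981), and the call was lost in DESeq2 (adjusted p = 0.0572) and without frozen library 1 or FFPE library 3. Eda2r in MNU read 15.8, 13.3 and 15.5 CPM in FFPE and 8.06, 8.69 and 6.59 CPM frozen (0.96, SE 0.29, adjusted p = 0.00545). The count of members called was 3 of 8 in BC57 and 4 of 9 in MNU with Ovation, against 32.8% and 37.3% of all genes.

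With SMARTer 1 of 9 was called in BC57 (19% of all genes; 2 with the replicate block, Ccng1 and Trp53) and 0 of 10 in MNU (1.81%). In the MNU set 3500 genes had an unadjusted p under 0.05, and DESeq2 called 2 members, Eda2r and Zmat3. Its FFPE library 3 was the one with few counts and low markers: Ccng1 read 140, 125 and 28.9 CPM there against 154, 186 and 179 CPM frozen. Without the FFPE libraries numbered 3, 5 members were called: Eda2r (1.40, adjusted p = 0.0223), Zmat3 (0.84, adjusted p = 0.000206) and Trp53inp1 (0.59, adjusted p = 0.000341) higher, and Ccng1 (-0.33, adjusted p = 0.0245) and Phlda3 (-0.72, adjusted p = 0.0189) lower. The 1.81% belongs to the edgeR fit on all libraries. No share of all genes is given for the DESeq2 or the reduced fit, so neither count sets the members apart.

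The difference in the effect of fixation between BC57 and MNU was tested directly. None of the 9 members tested with Ovation was called (6.06% of all genes were), and the values ran from -0.19 (Bax) to 0.63 (Eda2r). With SMARTer none of 10 was called, nor was any of 16574 genes (0%), although 1441 had an unadjusted p under 0.05 and DESeq2 called 72. These tests do not show that fixation acts alike in both samples, since the SE of a member's difference was 0.12 at best (Ccng1, Ovation).

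**Figure D4:**
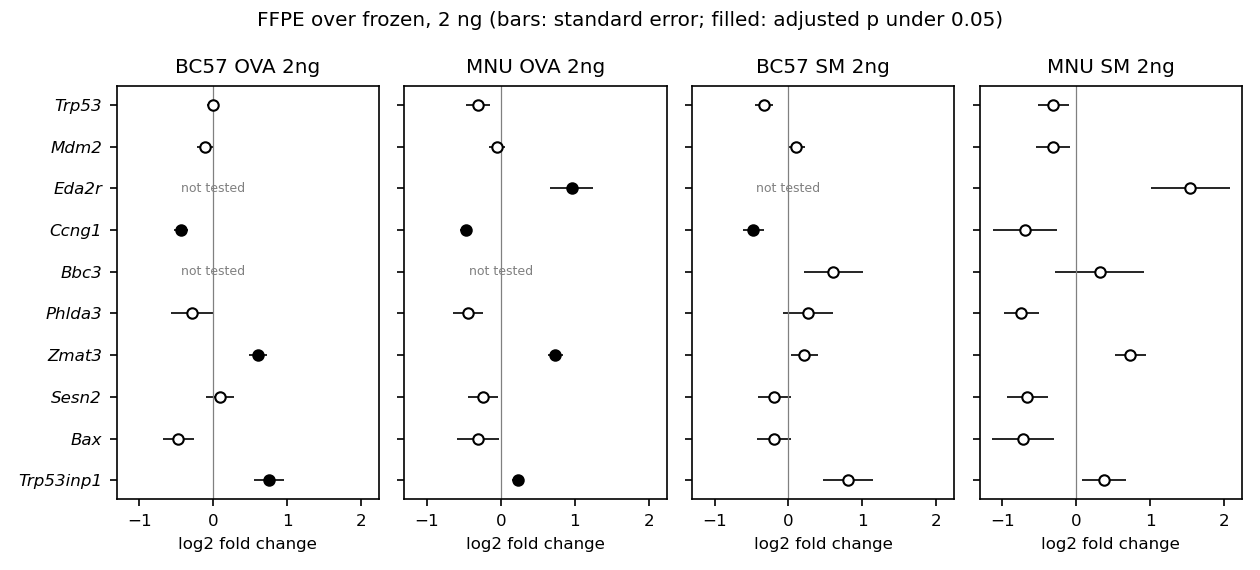
Log2 fold change of FFPE over frozen libraries at 2 ng (with its SE) for each gene in 4 comparisons (BC57 and MNU, Ovation and SMARTer); filled points passed an adjusted p under 0.05. Ccng1 lies below 0 in all 4, between -0.69 and -0.44, and Zmat3 above 0 in all 4, between 0.22 and 0.74.

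The level of most members differed between kits in frozen material. Against poly(A), the input (2 ng against 1 µg) and the depth differed together with the kit, so their parts cannot be told apart. With Ovation at 2 ng against poly(A), 9 of 9 members tested in BC57 and 9 of 10 in MNU passed the test, where 60.3% and 57% of all genes did. The same 4 members were higher with Ovation in both samples (30.4% of all genes in BC57 and 28.2% in MNU): Mdm2 (0.72 in BC57 and 0.55 in MNU), Ccng1 (0.91 and 0.56), Zmat3 (0.68 and 0.72) and Trp53inp1 (1.00 and 0.62). The same 5 were lower (29.8% and 28.8% of all genes): Trp53 (-0.18 and -0.36), Bbc3 (-1.79 and -1.19), Phlda3 (-1.11 and -1.20), Sesn2 (-0.31 and -0.48) and Bax (-1.07 and -1.44). Eda2r in MNU was not called (0.32, adjusted p = 0.262). The Bbc3 call in MNU was lost without MNU Ovation library 1, and the Sesn2 call in BC57 was lost without any of 4 single libraries and in DESeq2 (adjusted p = 0.0802).

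Bax shows the size of the difference, with 23.5, 27.6 and 20.1 CPM by Ovation against 54.7, 52.9 and 52.2 CPM by poly(A) in BC57. That gap was larger than the gap between BC57 and MNU by poly(A). Trp53 differed less, at 179, 201 and 166 against 222, 218 and 222 CPM in BC57 (adjusted p = 0.00473, edgeR). With SMARTer, 5 of 9 passed in BC57 (57.6% of all genes) and 7 of 10 in MNU (57.7%). Mdm2 was the only member called higher than in poly(A) (29.6% of all genes in BC57 and 29% in MNU), at 70.1, 67.7 and 67.4 against 49.2, 48.7 and 51.2 CPM in BC57 (0.54, SE 0.06) and by 0.57 in MNU. Trp53 (-0.38 and -0.72), Phlda3 (-1.20 and -1.02) and Bax (-1.08 and -1.16) were lower in both samples, Bbc3 only passed in BC57 (-0.46), and Zmat3 (-0.21), Sesn2 (-0.45) and Trp53inp1 (-0.54) passed in MNU; 28% and 28.7% of all genes were lower. The Bbc3 call did not hold without any of 3 single libraries, nor the Zmat3 call without any of 5. Phlda3, Bax and Bbc3 had values below 0 in all 4 comparisons of a total RNA kit with poly(A), and 11 of these 12 values passed. The exception was Bbc3 in MNU with SMARTer (-0.44, adjusted p = 0.178). Trp53 was below 0 in all 4 as well and passed in each, and Sesn2 was below 0 in all 4 and passed in 3.

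Between the low-input kits at 2 ng, Ccng1 (-0.82 in BC57 and -0.72 in MNU), Zmat3 (-0.64 and -0.95) and Trp53inp1 (-1.09 and -1.17) were lower with SMARTer than with Ovation in both samples. Bbc3 was higher in BC57 (1.30, adjusted p = 0.00835; lost without BC57 Ovation library 1) and Trp53 lower in MNU (-0.38, adjusted p = 0.0255; 0.0602 in DESeq2). That made 4 of 9 members called in each sample, against 53.3% and 49% of all genes. The 3 kit comparisons share their libraries in pairs, so their values are set side by side and not counted as separate support.

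The BC57 to MNU difference itself was compared between kits in 1 fit of 4 groups. With Ovation minus poly(A), 1 of 10 members was called (8.58% of all genes): the Ccng1 difference between BC57 and MNU was smaller by 0.43 on the log2 scale (SE 0.09, adjusted p = 0.00135). With SMARTer minus poly(A), 2 of 10 were called (8.77%): the Trp53 difference was larger by 0.45 (SE 0.12, adjusted p = 0.0203) and the Ccng1 difference smaller by 0.35 (SE 0.10, adjusted p = 0.0299). The Ovation call was lost in DESeq2, and the 2 SMARTer calls were lost without any of 4 (Trp53) or 5 (Ccng1) single libraries. These values depend on the scaling of 4 unlike groups. The median of all genes was 0.109 and 0.151 under TMM, and DESeq2's size factors moved it by -0.122 and -0.138; the share of higher genes among those called went from 80.8% to 49.4% and from 85.8% to 56.6%. Under those size factors the SMARTer values were 0.31 for Trp53 (adjusted p = 0.167) and 0.22 for Ccng1 (adjusted p = 0.284), so neither was called.

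**Figure D5:**
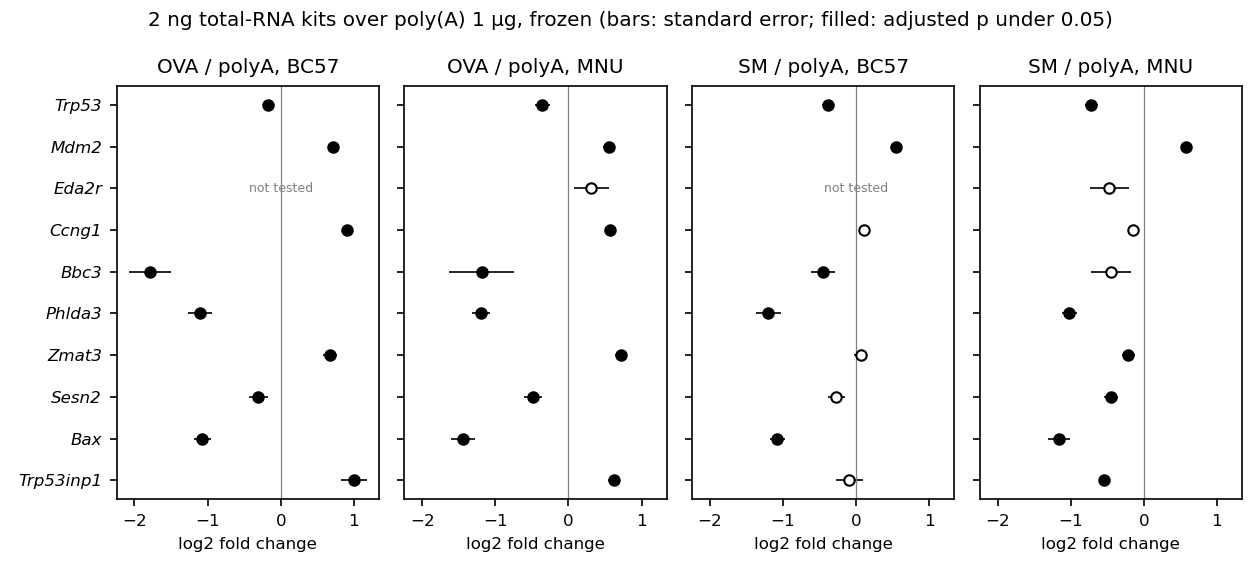
Log2 fold change of Ovation and of SMARTer at 2 ng over poly(A) at 1 µg on frozen RNA (with its SE), for BC57 and MNU; filled points passed an adjusted p under 0.05. Mdm2 lies above 0 in all 4 comparisons (0.54 to 0.72), and Bax (-1.44 to -1.07) and Phlda3 (-1.20 to -1.02) lie below 0 in all 4.

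Lower input gave no call among the members. In 4 comparisons of 50 pg with 2 ng by Ovation and 2 of 250 pg with 2 ng by frozen SMARTer, 0 members passed in edgeR. Almost no gene did: 2 genes in frozen BC57 (0.0178%), 2 in FFPE MNU (0.0144%) and 0 (0%) in the other 4 comparisons. Between 495 and 851 genes per comparison had an unadjusted p under 0.05, and DESeq2 called 0 to 171. Member values ran from -0.84 for Sesn2 to 0.67 for Bax. Ccng1 in FFPE MNU was higher at 50 pg without overlap (0.52, SE 0.13, adjusted p = 0.782), and DESeq2 called it (adjusted p = 0.0313).

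What did differ between inputs was the spread between repeat libraries. Depth differed as well: frozen BC57 Ovation libraries held 928722, 3793116 and 1379992 counts at 50 pg, against 2300831, 2169163 and 2266014 at 2 ng. The parts of input and depth in the spread were not tested. Over the 8 members other than Eda2r and Bbc3, whose means over the 22 groups were 4.61 and 3.38 CPM, the median coefficient of variation in BC57 was 4.93% for poly(A), 10.6% for frozen Ovation at 2 ng, 10.3% at 250 pg and 35.5% at 50 pg. In FFPE BC57 it was 4.93%, 17.4% and 35% for the same inputs. In MNU it was 6.48% for poly(A) and 6.59%, 28.4% and 20.8% for frozen Ovation, so the order of inputs was not the same. The SMARTer values at 2 ng and 250 pg were 15.3% and 21.5% in frozen BC57 and 8.23% and 21.9% in frozen MNU. The widest spread was in FFPE MNU with SMARTer, 53% at 2 ng and 73.4% at 250 pg, the groups with the 2 shallow libraries. Over all genes of at least 5 CPM the same groups gave 53.2% and 78.1%, and BC57 poly(A) gave 4.61%, close to the members' values in these 3 groups. In other groups the members and all genes differed: 4.93% against 10.8% in BC57 FFPE Ovation at 2 ng, 6.59% against 12% in MNU frozen Ovation at 2 ng, and 35.5% against 25.7% in BC57 frozen Ovation at 50 pg.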

How the data were processed

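Raw counts per gene were deposited by the authors as 3 tables, 1 per library kit. Per the submitters' processing notes, STAR, SAMtools, featureCounts and mm10 were used. Versions, annotation and strand setting were not given in the sources used. Deposited log2 normalized values were not used. In R 4.3.3, edgeR 4.0.16 (filterByExpr, TMM, robust quasi-likelihood fit) was run on whole tables for 31 comparisons of 3 against 3 libraries (4 groups for interactions), with Benjamini-Hochberg adjustment over all genes tested and a threshold of 0.05. SE is the log2 fold change over the root of F. Alternatives were DESeq2 1.42.0, its size factors, no filter, a replicate block and left-out libraries. The fit was tested on simulated counts.

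Identifiers of 37693 genes matched GENCODE M21; the rest held at most 2.471% of a library. Members and lists were chosen with earlier results of these data known. Every member is named; of the pathway lists, the 4 genes of largest change per direction in poly(A), and Cdkn1a, Mdm4, Cdkn2a and Wrap53. Deviations from group means of equally numbered libraries correlated at -0.083 to 0.353 over 27 comparisons. In 2, BC57 against MNU in SMARTer FFPE at 2 ng and FFPE against frozen in BC57 SMARTer, every pair exceeded 0.1. Library 3 stood apart there, with counts in 26973 genes against 18794 and 18855 in BC57 FFPE. In frozen BC57 it had 21989 against 17357 and 17707. The correlations cannot tell a pairing from a difference shared by the libraries numbered 3. The labels do not say that a number is shared, so the block is only an alternative fit.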

Additional observations from a re-analysis of the deposited data

Results flagged for a closer look

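In 3 cases the difference between BC57 and MNU itself differed between kits in a direct test (edgeR interaction, 3 libraries a group). For Ccng1 the log2 difference was 0.43 higher with Ovation at 2 ng than with poly(A) (0.428, SE 0.0933, adjusted p = 0.00135). When each kit was fitted alone, Ccng1 was -1.40 by Ovation and -1.58 by poly(A), a smaller gap than in the fit of 4 groups. For Trp53 the log2 difference was 0.446 higher with SMARTer at 2 ng than with poly(A) (SE 0.122, adjusted p = 0.0203). For Ccng1 it was 0.355 higher with SMARTer (SE 0.104, adjusted p = 0.0299). The Trp53 gap, too, was smaller when each kit was fitted alone. With DESeq2's size factors both SMARTer values lost their call, and the median of all genes moved by -0.138 in the same fit. In DESeq2 the Ovation value for Ccng1 was 0.31 (adjusted p = 0.0527).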

How the results depend on the processing

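Over single members, DESeq2 gave the same call in 255 results, a gained call in 6 and a lost call in 11; DESeq2's size factors in edgeR gave 284 same and 4 lost, no filter 271 same, 10 gained and 7 lost, and the replicate block 278 same, 3 gained and 7 lost. Leaving out single libraries gave 1841 same, 43 gained, 72 lost and 1 turned: Bax in BC57 against MNU at 250 pg frozen Ovation went from -0.10 to 1.08 without MNU library 3 (-0.45 to 1.08 with each library left out in turn). Without the SMARTer FFPE libraries numbered 3, 39 results kept their call and 8 gained one. Causes were not tested. Counts of members called that moved by over 1.5 times were these, given without the share of all genes in the same fits. For BC57 against MNU at 250 pg frozen Ovation, 4 became 4 to 7 with single libraries left out; at 250 pg frozen SMARTer, 5 became 3 with the replicate block and 3 to 4 with libraries left out. For SMARTer FFPE at 2 ng, 4 became 2 to 5 with libraries left out; at 250 pg, 0 became 1 in DESeq2, 1 without the libraries numbered 3 and 0 to 2 with single libraries left out. For FFPE against frozen with SMARTer, 1 in BC57 became 2 without a filter, 2 with the replicate block and 0 to 2 with libraries left out; 0 in MNU became 2 in DESeq2, 5 without the libraries numbered 3 and 0 to 5 with single libraries left out. For 50 pg against 2 ng in MNU FFPE Ovation, 0 became 1 in DESeq2. For the Ovation minus poly(A) difference, 1 became 0 in DESeq2, 5 without a filter and 1 to 4 with libraries left out; for SMARTer minus poly(A), 2 became 0 with DESeq2's size factors, 0 in DESeq2, 4 without a filter and 0 to 4 with libraries left out. In the 2 comparisons in which every equally numbered pair exceeded 0.1, the block changed no other call. The labels show no pairing of libraries in any comparison. Eda2r in BC57 had few or no counts in the low-input kits, and 13 counts in the deeper poly(A) libraries. Bbc3 had few or no counts in the low-input comparisons in which it did not pass the filter, in BC57 as well as in MNU.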
